A study of Mus musculus with 12 samples.

Results

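The genes described here encode 35 proteins of the lysosome, out of 41325 genes in the deposited count tables. They are soluble hydrolases other than most cathepsins, helper proteins of the lysosomal lumen, proteins of the lysosomal membrane, and subunits of the vacuolar proton pump (V-ATPase). The list of genes was chosen with earlier results of these data known. Rows were found by an exact match of the gene name in both deposited tables, without use of any measured value. All 35 genes were found and had enough counts to be tested in every comparison. By role they are 14 hydrolases, 4 other luminal proteins, 5 membrane proteins, 5 subunits of the membrane sector V0 of the pump, 6 subunits of its cytosolic sector V1, and 1 accessory protein of the pump.

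The cells were IMG, a mouse microglial cell line made to grow without limit by immortalisation, of wild type genotype and C57Bl6/J strain and all at the same passage. Microglia are macrophages that reside in brain tissue. IMG cells were treated for 8 h with fAb (4 libraries), oAb (4 libraries) or scramble (4 libraries, the control). fAb and oAb are preparations of amyloid beta, the peptide that builds up in Alzheimer's disease. The series' design text calls oAb fibrillar and fAb oligomeric, the reverse of what the abbreviations would read as, so the groups are named here only by their labels. All groups share the same line, so the results describe 1 immortalised cell type and not microglia in tissue. The labels do not say that replicates were separate cultures, so that p-values reflect only how these libraries vary, possibly for technical reasons.

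Lysosomes degrade material that microglia take up, amyloid beta included. Soluble hydrolases reach them from the Golgi, mostly by mannose 6-phosphate receptors, and work in the acid lumen that the V-ATPase makes by turning its V1 and V0 sectors against each other with the energy of ATP. Many lysosomal genes carry the E-box CACGTG near their start, the core of the element bound by TFEB and its relatives, which activate lysosomal genes as a network.

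Libraries held 13638721 to 18124419 counts, of which the 35 genes took 0.980 to 1.01% in fAb, 0.986 to 1.03% in oAb and 1.04 to 1.11% in scramble libraries. Of 10 microglia and macrophage markers, 9 had more than 3 counts in fAb, 9 in oAb and 10 in scramble cells (Tmem119, a marker of resting microglia in brain, was at or under 3 in fAb and oAb), and their summed TPM (a transcript level corrected for gene length and depth) was 3487 to 3662 in fAb, 3439 to 3840 in oAb and 4254 to 4792 in scramble libraries. Summed neuron and astrocyte markers stayed under 0.36 TPM in each library, lymphocyte markers were at 0, and fibroblast markers summed to 0.875 to 1.38 TPM in fAb, 1.14 to 1.72 TPM in oAb and at most 0.0569 TPM in scramble libraries. Oligodendrocyte markers summed to 15.6 to 16.7 TPM in fAb, 13.9 to 15.3 TPM in oAb and 26.4 to 48.1 TPM in scramble libraries, with Mog and Olig2 at or under 3 counts in each group. Mitochondrially encoded mRNAs took 2.58 to 2.81% of counts in fAb, 2.6 to 3.20% in oAb and 4.07 to 4.83% in scramble libraries; their part in the results was not tested. Scramble replicate 3 stood apart: ribosomal protein genes took 10.7% of its counts, against 6.45 to 6.81% in the other controls, and it held the highest or the lowest control value of 32 of the 35 genes. Libraries also fell into 2 sets by the share of Timm23 in the summed counts of Timm23 and Gm10273, which was 94.6 to 98.3% in oAb replicates 1 and 2 and scramble replicates 2, 3 and 4, and 17.5 to 38.5% in all fAb libraries, oAb replicates 3 and 4 and scramble replicate 1. No label names a batch, and with only 1 control in the set of the fAb libraries a comparison within that set has no replicate on the control side.

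The promoters of 5 genes with an E-box are printed, chosen by their calls or their number of E-boxes. Clcn7 was higher by the most and Sgsh lower by the most after both preparations. Naglu and Glb1 are the other genes lower in both with an E-box in their window, and Lamp1 has the most E-boxes. Not printed are, among others, the 5 genes with an E-box that passed in neither comparison. Whether an E-box goes with a call was not tested. Each line is the 100 bases before the RefSeq start in GRCm38.p6, 5′ to 3′ on the gene's strand, with the E-box CACGTG in capitals. The positions are chr17:25133291-25133390 (plus strand) for Clcn7, chr11:119355511-119355610 (minus) for Sgsh, chr11:101069994-101070093 (plus) for Naglu, chr9:114400978-114401077 (plus) for Glb1 and chr8:13159061-13159160 (plus) for Lamp1.
Clcn7: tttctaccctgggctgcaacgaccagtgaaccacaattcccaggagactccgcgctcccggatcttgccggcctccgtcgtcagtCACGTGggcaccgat
Sgsh: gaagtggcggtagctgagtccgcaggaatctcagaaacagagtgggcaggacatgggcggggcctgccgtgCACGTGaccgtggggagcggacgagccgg
Naglu: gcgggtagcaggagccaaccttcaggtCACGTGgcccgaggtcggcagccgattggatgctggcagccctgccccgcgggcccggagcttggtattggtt
Glb1: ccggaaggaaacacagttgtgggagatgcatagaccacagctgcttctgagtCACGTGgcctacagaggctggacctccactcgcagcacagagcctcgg
Lamp1: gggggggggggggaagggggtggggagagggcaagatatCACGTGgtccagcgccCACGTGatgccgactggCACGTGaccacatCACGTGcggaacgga
The stretches of Clcn7, Sgsh, Naglu and Glb1 hold 1 E-box each, and that of Lamp1 holds 4. A second E-box of Clcn7 begins 7 bases into the transcript, outside the printed stretch. The GENCODE gene positions used below place the starts of Naglu (101070012), Sgsh (119355536) and Glb1 (114401076) inside their printed stretches. By those positions the E-box of Naglu lies within the gene, that of Sgsh spans its start, and that of Glb1 lies before it.

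Of the 35 genes some rose, some fell and 14 did not pass in each comparison of fAb or oAb with scramble; the 2 comparisons share the 4 scramble libraries. After fAb, 11 were higher than in scramble cells, 10 were lower and 14 did not pass the test, where over all 11074 genes tested 56.3% passed (27.6% higher and 28.8% lower). After oAb, 12 were higher, 9 lower and 14 did not pass, where 52.2% of all 11033 genes tested passed (25.2% higher and 27% lower). The share of the 35 that passed was 60% in each comparison, near these backgrounds. Their median log2 fold change was 0.03 after fAb and -0.05 after oAb, beside -0.04 and -0.07 over all genes tested. By role, the share after fAb and after oAb was 64.3 and 64.3% of hydrolases, 50 and 50% of other luminal proteins and 80 and 60% of membrane proteins. It was 50 and 58.3% of the 12 pump genes, with 20 and 40% of V0 and 83.3 and 83.3% of V1 subunits. The test was edgeR's quasi-likelihood F test on counts with Benjamini-Hochberg adjustment over all genes and a threshold of 0.05. Log2 fold changes are given with their standard error (SE), and levels as normalised CPM, that is, counts scaled to a common library size with TMM factors over the 12 libraries. Without scramble replicate 3 the numbers were 15 higher and 10 lower after fAb and 14 higher and 10 lower after oAb.

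Higher in both were 11 genes: Lipa, Neu1, Npc2, Clcn7, Lamp2, Atp6v0a1, Atp6v1b2, Atp6v1c1, Atp6v1d, Atp6v1e1 and Atp6v1h. Lower in both were 9: Sgsh, Man2b1, Naglu, Tpp1, Hexa, Glb1, Ppt1, Gm2a and Scarb2. Atp6v0d1 passed in the oAb comparison alone and Lamp1 in the fAb comparison alone, and for neither gene did the difference between fAb and oAb pass. Of the 12 pump genes 6 were higher after fAb and 7 after oAb and none lower, but with upper quartile scaling Atp6v0d2 was lower in both comparisons (-0.42 and -0.54) and Atp6ap1 after oAb (-0.23), beside 4 higher. Atp6v0d2 also passed as lower after oAb with all 12 libraries in 1 fit, with the library set as a term and without scramble replicate 3. Among the 23 other genes 5 were higher and 10 lower after fAb, and 5 higher and 9 lower after oAb. With upper quartile scaling, which shifts the median log2 fold change of all genes to -0.23 after fAb and -0.24 after oAb, the split became 8 higher and 14 lower in both comparisons, and over all genes it became 2273 higher and 4361 lower after fAb (3051 and 3184 with TMM) and 2127 and 4015 after oAb (2777 and 2984). The calls of 8 higher genes (Lipa, Npc2, Lamp2, Clcn7, Atp6v0a1, Atp6v1b2, Atp6v1e1 and Atp6v1h) and of 8 lower genes (Sgsh, Man2b1, Naglu, Tpp1, Glb1, Ppt1, Gm2a and Scarb2) held in both comparisons under all 15 alternatives, those that leave out scramble replicate 3 or take the library set as a term included.

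**Figure D1:**
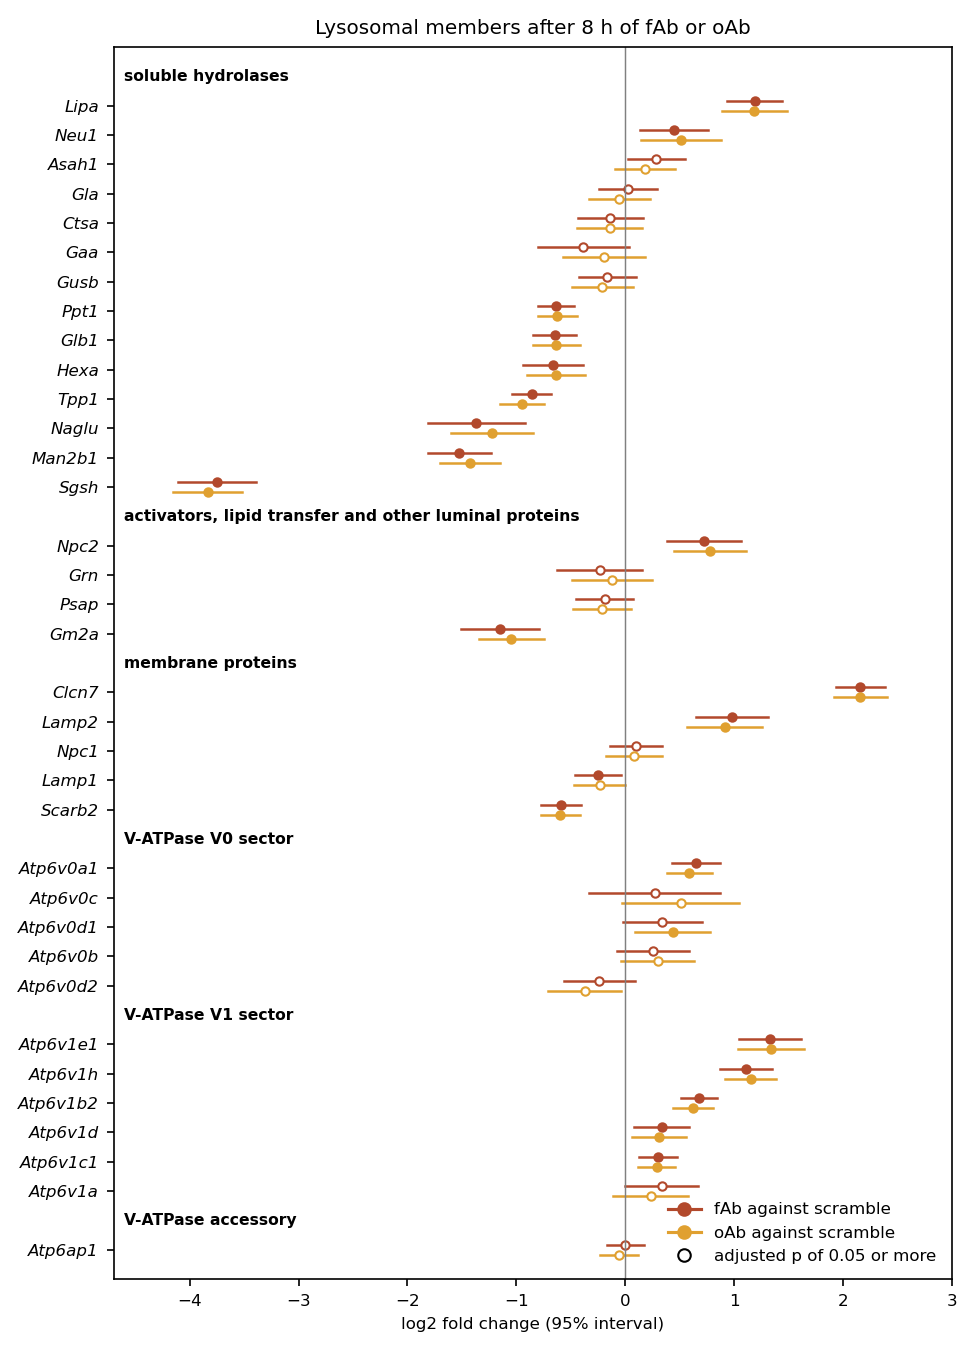
Log2 fold change against scramble of each of the 35 genes (points), with 95% intervals derived from edgeR's F statistic and 4 libraries per group. Genes are grouped by role from top to bottom, with fAb in red and oAb in yellow. Open points mark an edgeR adjusted p of 0.05 or more. Sgsh lies farthest left at -3.75 and -3.84, and Clcn7 farthest right at 2.16 in both. The 2 preparations lie close together for most genes, and less so for Atp6v0c and Gaa.

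Among the 14 hydrolases, 7 were lower and 2 higher after fAb, and 7 lower and 2 higher after oAb, with median log2 fold changes of -0.51 and -0.42. The largest fall of all 35 genes was that of Sgsh (chr11:119343425-119355536 in GRCm38, as for all gene positions here, minus strand), which encodes the sulfatase that removes N-linked sulfate from heparan sulfate. Sgsh had 2.44, 2.74, 3.48 and 3.16 normalised CPM in fAb cells, 2.63, 2.98, 2.62 and 3.12 in oAb cells, and 34.9, 37.6, 47.4 and 43 in scramble cells. Every treated library lay far below every control, and the fAb and oAb libraries overlapped. Its log2 fold change was -3.75 ± 0.16 after fAb (13.4-fold lower, edgeR adjusted p = 9.81e-08) and -3.84 ± 0.14 after oAb (14.3-fold lower, edgeR adjusted p = 3.31e-08). These levels rest on 42 to 53 counts per fAb library, 40 to 49 per oAb library and 624 to 693 per scramble library. Of the exonic bases of Sgsh, 21.6% overlap Card14 on the other strand, and the sources used here do not say whether counting used strand.

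Naglu (chr11:101070012-101077672), which encodes the N-acetylglucosaminidase of heparan sulfate breakdown, had 18.7, 13.5, 20.4 and 20.1 normalised CPM in fAb cells, 20.2, 22.6, 18.2 and 20.9 in oAb cells, and 37, 43.4, 64.3 and 47.2 in scramble cells. The treated groups did not reach the control group, in which replicate 3 was the highest. Naglu fell by 1.37 on the log2 scale (SE 0.20) after fAb (edgeR adjusted p = 0.000308) and by 1.22 (SE 0.17) after oAb (edgeR adjusted p = 0.000237). Without scramble replicate 3 the log2 fold changes of Naglu were -1.19 and -1.05.

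Man2b1 (chr8:85083270-85098282), the lysosomal alpha-mannosidase that trims N-glycans, had 90.0, 87.1, 114 and 113 normalised CPM in fAb cells, 96.6, 99.5, 120.4 and 126 in oAb cells, and 277, 269, 344 and 300.1 in scramble cells. All controls were far above all treated libraries, and the fAb and oAb libraries overlapped. Man2b1 was 2.87-fold lower after fAb (log2 fold change -1.52 ± 0.13, edgeR adjusted p = 9.44e-06) and 2.69-fold lower after oAb (-1.43 ± 0.12, edgeR adjusted p = 1.12e-05).

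Lipa (chr19:34492318-34527474, minus strand) was 1 of the 2 hydrolases that rose. It encodes lysosomal acid lipase, which releases cholesterol and fatty acids from cholesteryl esters and triglycerides. Lipa had 844, 887, 905 and 917 normalised CPM in fAb cells, 822, 822, 1013 and 975 in oAb cells, and 452, 408, 322 and 419 in scramble cells. The lowest treated library stood well above the highest control, and scramble replicate 3 was the lowest of all. Lipa was 2.28-fold higher after fAb (log2 fold change 1.19 ± 0.11, edgeR adjusted p = 1.82e-05) and 2.27-fold higher after oAb (1.19 ± 0.13, edgeR adjusted p = 6.01e-05).

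The other hydrolases that fell did so by less than 1 on the log2 scale. Tpp1 averaged 86.3 ± 3.97 normalised CPM in fAb, 83.1 ± 6.04 in oAb and 161 ± 9.53 in scramble cells (SD, n = 4 each, as for the means that follow). Hexa averaged 172 ± 4.76 in fAb, 179 ± 2.70 in oAb and 279 ± 47.9 in scramble cells. Glb1 averaged 42.8 ± 1.91, 44.2 ± 3.25 and 68.7 ± 5.26 normalised CPM in fAb, oAb and scramble cells, and Ppt1 57.0 ± 1.57, 59.0 ± 3.12 and 91.0 ± 2.29. The treated groups were alike for these genes and the controls higher. Tpp1, a tripeptidyl peptidase, changed by -0.86 ± 0.08 after fAb and -0.95 ± 0.09 after oAb. Hexa, the alpha subunit of beta-hexosaminidase A, changed by -0.66 ± 0.12 and -0.63 ± 0.12, though with the library set as a term its fAb value of -0.46 did not pass (edgeR adjusted p = 0.0735). Glb1, beta-galactosidase, changed by -0.65 ± 0.09 after fAb and -0.63 ± 0.10 after oAb, and Ppt1, which removes palmitate from proteins, by -0.64 ± 0.07 and -0.62 ± 0.08. In all 4 genes the libraries of each treated group lay below all controls, and edgeR adjusted p ran from 1.84e-05 (Tpp1, fAb) to 0.00163 (Hexa, oAb).

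Neu1, the lysosomal sialidase, was the other hydrolase that rose, by 0.45 ± 0.14 after fAb (edgeR adjusted p = 0.0201) and 0.51 ± 0.16 after oAb (0.0252, also from edgeR). Neu1 had 27.0, 24.6, 27.9 and 29.2 normalised CPM in fAb cells, 32.3, 32.5, 22.6 and 28.7 in oAb cells, and 17, 21.5, 25.2 and 17.9 in scramble cells. Both treated groups overlapped the controls through scramble replicate 3, and the call was lost with upper quartile scaling or when any of several single libraries was left out: without 1 library the edgeR adjusted p reached 0.0572 for fAb and 0.0731 for oAb.

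For 5 hydrolases no difference from scramble passed the test in either comparison. Mean normalised CPM of Ctsa was 625 ± 35.8 in fAb, 637 ± 42.3 in oAb and 705 ± 127 in scramble cells, and that of Gusb 533 ± 18.5 in fAb, 529.7 ± 43.9 in oAb and 613 ± 91.4 in scramble cells. Asah1 was at 198 ± 7.45, 189 ± 9.72 and 167 ± 26.3 in fAb, oAb and scramble cells, Gaa at 58.5 ± 9.83, 68.2 ± 7.08 and 78.2 ± 17.7, and Gla at 56.3 ± 2.12, 54.4 ± 4.32 and 56.6 ± 8.87. The spread of the controls, with replicate 3 at 1 end, was the widest of the groups for each of these 5. Ctsa, which stabilises Neu1 and beta-galactosidase in a complex, had log2 fold changes of -0.14 ± 0.13 after fAb and -0.14 ± 0.13 after oAb. The intervals of Ctsa, -0.43 to 0.16 and -0.44 to 0.16, leave room for changes of either sign. Gaa, the glucosidase of lysosomal glycogen, was at -0.38 ± 0.19 and -0.19 ± 0.17, Gla, alpha-galactosidase A, at 0.03 ± 0.12 and -0.05 ± 0.12, and Gusb, beta-glucuronidase, at -0.17 ± 0.12 and -0.21 ± 0.12. With upper quartile scaling Gusb (-0.35 and -0.38) and, after fAb, Gaa (-0.57) passed as lower. Asah1, acid ceramidase, was at 0.29 ± 0.12 after fAb (edgeR adjusted p = 0.059) and 0.18 ± 0.12 after oAb. Without scramble replicate 3, its lowest control, Asah1 passed after fAb at a smaller value of 0.19 (edgeR adjusted p = 0.0157), and it also passed without scramble replicate 1 (0.34, edgeR adjusted p = 0.0387) and in DESeq2 (0.30, adjusted p = 0.0334).

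Of the 4 other luminal proteins, 1 fell and 1 rose after both preparations. Gm2a (chr11:55098115-55113029), the activator that presents GM2 ganglioside to beta-hexosaminidase A, had 23.5, 28.2, 33.6 and 31.6 normalised CPM in fAb cells, 29.6, 33.1, 34.2 and 31.5 in oAb cells, and 53.8, 61.8, 81.6 and 68.7 in scramble cells. No treated library reached the lowest control. Gm2a was 2.22-fold lower after fAb (log2 fold change -1.15 ± 0.16, edgeR adjusted p = 0.000237) and 2.07-fold lower after oAb (-1.05 ± 0.13, edgeR adjusted p = 0.00014).

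Npc2 (chr12:84754562-84773152, minus strand), the soluble carrier that hands cholesterol to Npc1 for export from the lysosome, had 610.0, 629.6, 667 and 662 normalised CPM in fAb cells, 653, 688, 680.1 and 710.3 in oAb cells, and 336, 349.8, 532 and 377 in scramble cells. All treated libraries were above all controls, with scramble replicate 3 the nearest to them. Npc2 was 1.65-fold higher after fAb (log2 fold change 0.72 ± 0.15, edgeR adjusted p = 0.00293) and 1.72-fold higher after oAb (0.78 ± 0.15, edgeR adjusted p = 0.00177), and without scramble replicate 3 the log2 values were 0.90 and 0.95. Psap, the precursor of the saposins that help hydrolases reach their lipids, had a log2 fold change of -0.19 ± 0.12 after fAb and -0.21 ± 0.12 after oAb and passed in neither, although its fAb libraries all lay below its controls; with upper quartile scaling it passed at -0.37 and -0.38. Grn, which encodes progranulin, averaged 607 ± 62.2 normalised CPM in fAb, 670.4 ± 40.6 in oAb and 732 ± 183 in scramble cells. Its log2 fold changes were -0.24 ± 0.17 and -0.12 ± 0.16, and neither passed.

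The 5 membrane proteins held the largest rise. Clcn7 (chr17:25133391-25162104) encodes the chloride-proton exchanger of the lysosomal membrane. It had 282, 276, 274 and 264 normalised CPM in fAb cells, 270.3, 278, 279 and 296 in oAb cells, and 73.7, 61.6, 54.2 and 62.0 in scramble cells. The treated groups overlapped each other closely and lay far above the controls. Clcn7 was 4.47-fold higher after fAb (log2 fold change 2.16 ± 0.10, edgeR adjusted p = 1.81e-07) and 4.47-fold higher after oAb (2.16 ± 0.11, edgeR adjusted p = 2.42e-07).

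Lamp2 (chrX:38401357-38456454, minus strand), a glycoprotein of the lysosomal membrane of which 1 splice form is the receptor of chaperone-mediated autophagy, had 535, 542, 558 and 523 normalised CPM in fAb cells, 507, 497, 554 and 556 in oAb cells, and 326, 293, 197 and 306 in scramble cells. All treated libraries were above all controls, and scramble replicate 3 was the lowest. Lamp2 was 1.98-fold higher after fAb (log2 fold change 0.98 ± 0.15, edgeR adjusted p = 0.000379) and 1.89-fold higher after oAb (0.92 ± 0.15, edgeR adjusted p = 0.000806). Counts per gene do not separate its splice forms.

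Scarb2 (chr5:92441314-92506833, minus strand), the receptor LIMP-2 that carries glucocerebrosidase to lysosomes, had 48.9, 53.8, 55.0 and 49.2 normalised CPM in fAb cells, 52.5, 50.2, 55.3 and 52.8 in oAb cells, and 77.0, 80.2, 80.4 and 81.4 in scramble cells. The controls were tightly grouped above all treated libraries. Scarb2 was 1.5-fold lower after fAb (log2 fold change -0.59 ± 0.08, edgeR adjusted p = 0.000222) and 1.51-fold lower after oAb (-0.59 ± 0.08, edgeR adjusted p = 0.000175).

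Lamp1, the most abundant of the membrane proteins by transcript, averaged 731 ± 39.1 normalised CPM in fAb, 756 ± 64.8 in oAb and 892 ± 75.5 in scramble cells. It had a log2 fold change of -0.25 ± 0.09 after fAb (edgeR adjusted p = 0.0469) and -0.24 ± 0.11 after oAb (edgeR adjusted p = 0.0888). The fAb call of Lamp1 was lost in 9 of 15 alternatives, with an edgeR adjusted p of 0.132 without fAb replicate 1, 0.413 with the library set as a term and 0.0517 with the replicate number as a block. Npc1, the membrane partner of Npc2, averaged 131 ± 8.64 in fAb, 132 ± 11.9 in oAb and 125 ± 15.8 in scramble cells, with log2 fold changes of 0.10 ± 0.10 and 0.08 ± 0.11 that did not pass.

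**Figure D2:**
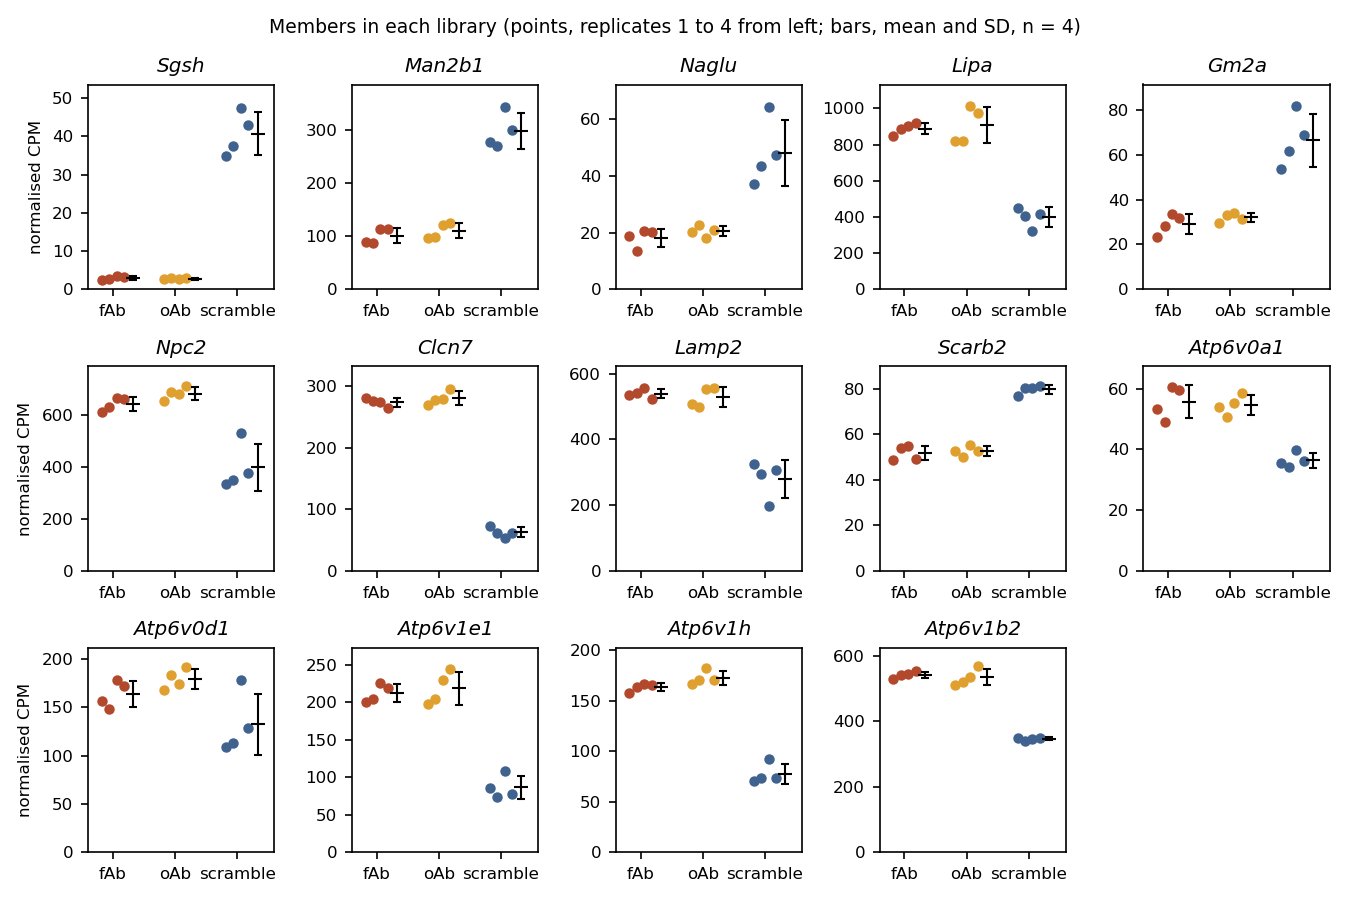
Normalised CPM (linear axes from 0) in each library of 14 genes, those with the largest changes past the threshold in each role, with fAb left, oAb in the middle and scramble on the right; bars are the mean and SD of 4 libraries. In Atp6v0d1 scramble replicate 3, at 178, lies among the treated libraries, and in the other panels, chosen for their change, no treated library overlaps the controls; over all 35 genes the fAb libraries were above all controls in 10 and below them in 11 (55.4% of all genes tested had no overlap), and the oAb libraries in 10 and 9 (51.1%).

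The V0 sector of the pump carries protons through the membrane. Of its 5 subunits, 1 rose after fAb and 2 after oAb, and none fell, though under 4 alternatives Atp6v0d2 passed as lower. Atp6v0a1 (chr11:101009452-101063719), the a subunit that lines the path of the protons, had 53.4, 49.1, 60.7 and 59.5 normalised CPM in fAb cells, 53.8, 50.7, 55.4 and 58.5 in oAb cells, and 35.4, 34.1, 39.9 and 36.2 in scramble cells. The groups of treated cells did not overlap the controls. Atp6v0a1 was 1.57-fold higher after fAb (log2 fold change 0.65 ± 0.10, edgeR adjusted p = 0.000416) and 1.5-fold higher after oAb (0.59 ± 0.09, edgeR adjusted p = 0.000498).

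Atp6v0d1 (chr8:105524465-105566047, minus strand), which couples the membrane ring to the central stalk, had 157, 148, 178 and 172 normalised CPM in fAb cells, 168, 183, 174 and 192 in oAb cells, and 109, 114, 178 and 129 in scramble cells. Replicate 3 of scramble was level with the treated libraries, and the other 3 controls were below all of them. The log2 fold change of Atp6v0d1 was 0.34 ± 0.16 after fAb (edgeR adjusted p = 0.0942) and 0.44 ± 0.15 after oAb (edgeR adjusted p = 0.0365). Without scramble replicate 3 both passed, at 0.52 (edgeR adjusted p = 0.000274) and 0.61 (edgeR adjusted p = 4.27e-05), while leaving out any other single library, or upper quartile scaling (0.27, edgeR adjusted p = 0.169), ended the oAb call. With the replicate number as a block, Atp6v0d1 also passed after fAb (0.37, edgeR adjusted p = 0.0328).

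The remaining V0 subunits did not pass. Atp6v0c, the main proteolipid of the ring, varied widely between replicates: it had 774, 579, 919 and 972 normalised CPM in fAb cells, 1011, 1077, 803 and 1011 in oAb cells, and 416, 601, 1011 and 719.6 in scramble cells. Its groups overlapped, and its log2 fold changes were 0.27 ± 0.27 and 0.51 ± 0.24. Of the 50-base words of Atp6v0c, 10.8% are shared with its pseudogenes. Atp6v0b, the other proteolipid, averaged 256 ± 13.9 normalised CPM in fAb, 270.3 ± 20.6 in oAb and 220.2 ± 48.4 in scramble cells. Its log2 fold change was 0.25 ± 0.15 after fAb and 0.30 ± 0.15 after oAb. Without scramble replicate 3, Atp6v0b passed in both comparisons at 0.42 and 0.46, and Atp6v0c passed after oAb at 0.76; Atp6v0c also passed after oAb with the library set as a term (0.67). Atp6v0d2, the d subunit known from osteoclasts, was low, at 8.89 ± 1.17 in fAb, 8.30 ± 1.13 in oAb and 10.8 ± 1.49 in scramble cells, with log2 fold changes of -0.24 ± 0.14 and -0.37 ± 0.15. Atp6v0d2 passed as lower after oAb without scramble replicate 3 (-0.45, edgeR adjusted p = 0.0136), with the library set as a term (-0.42, edgeR adjusted p = 0.0402), with all 12 libraries (-0.37, edgeR adjusted p = 0.0366) and with upper quartile scaling.

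The V1 sector hydrolyses ATP. Of its 6 subunits 5 rose after fAb and 5 after oAb (3 in each with upper quartile scaling), and none fell. The 5 are 83.3% of the sector, where 56.3% of all genes passed after fAb and 52.2% after oAb (27.6% and 25.2% higher). The median log2 fold change of the sector was 0.51 and 0.47. Atp6v1e1 (chr6:120794305-120822793, minus strand), of the peripheral stalk, had 200.4, 205, 226 and 219 normalised CPM in fAb cells, 197, 204, 230.4 and 244 in oAb cells, and 85.2, 74.3, 108 and 78.5 in scramble cells. All treated libraries were well above all controls. Atp6v1e1 was 2.52-fold higher after fAb (log2 fold change 1.33 ± 0.13, edgeR adjusted p = 2.18e-05) and 2.54-fold higher after oAb (1.34 ± 0.14, edgeR adjusted p = 3.12e-05).

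Atp6v1h (chr1:5070018-5162529), the H subunit that controls whether the joined pump hydrolyses ATP, had 158, 164, 167 and 166 normalised CPM in fAb cells, 166, 171, 182 and 171 in oAb cells, and 70.7, 73.8, 92.9 and 73.6 in scramble cells. Scramble replicate 3 stood above the other controls and far below the treated libraries. Atp6v1h was 2.16-fold higher after fAb (log2 fold change 1.11 ± 0.10, edgeR adjusted p = 1.92e-05) and 2.23-fold higher after oAb (1.15 ± 0.10, edgeR adjusted p = 1.42e-05).

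Atp6v1b2 (chr8:69088646-69113711), the nucleotide-binding B subunit of most tissues, had 529, 540.1, 545 and 553 normalised CPM in fAb cells, 512, 522, 536 and 568 in oAb cells, and 350.1, 340.0, 348 and 350.4 in scramble cells. The controls lay close to each other and below all treated libraries. Atp6v1b2 was 1.60-fold higher after fAb (log2 fold change 0.68 ± 0.07, edgeR adjusted p = 4.22e-05) and 1.54-fold higher after oAb (0.63 ± 0.08, edgeR adjusted p = 0.00015).

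Atp6v1c1 averaged 208 ± 10.2 normalised CPM in fAb, 211 ± 7.5 in oAb and 173 ± 6.29 in scramble cells, and Atp6v1d 79.4 ± 1.10 in fAb, 79.9 ± 0.632 in oAb and 64.5 ± 9.66 in scramble cells. Smaller rises were thus seen for Atp6v1c1, the C subunit that leaves when the sectors come apart, at 0.30 ± 0.08 after fAb and 0.29 ± 0.08 after oAb, and for Atp6v1d of the central rotor at 0.34 ± 0.11 and 0.31 ± 0.11. Atp6v1d passed with little room (edgeR adjusted p = 0.0287 after fAb and 0.0392 after oAb), and leaving out any single library other than scramble replicate 3 ended both calls. With upper quartile scaling neither Atp6v1c1 (0.11 and 0.12) nor Atp6v1d (0.15 and 0.14) passed, and with the library set as a term the fAb calls of Atp6v1c1 (0.31, edgeR adjusted p = 0.0975) and Atp6v1d (0.44, edgeR adjusted p = 0.101) were lost. Atp6v1a, the catalytic A subunit, averaged 675 ± 18.5 in fAb, 645 ± 25.3 in oAb and 549 ± 113 in scramble cells. It did not pass at 0.34 ± 0.15 (edgeR adjusted p = 0.0793) and 0.24 ± 0.15 (edgeR adjusted p = 0.226), with scramble replicate 3 as its lowest control. Atp6v1a passed after fAb without that library, at a smaller value of 0.20 (edgeR adjusted p = 0.00636), and in DESeq2 (0.35, adjusted p = 0.049). Atp6ap1, the accessory glycoprotein Ac45 that helps the pump to assemble, averaged 162 ± 8.09 in fAb, 159 ± 5.05 in oAb and 166 ± 8.23 in scramble cells. Its log2 fold changes were 0.00 ± 0.08 and -0.06 ± 0.08, with 95% intervals of -0.17 to 0.17 and -0.23 to 0.12.

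Per transcript length, the order of the genes changed in places. In TPM, Psap was the most abundant of the 35 in every group, with 1227 ± 30.3 TPM in fAb, 1166 ± 67.9 in oAb and 1518 ± 36.4 in scramble cells (SD, n = 4 each). Lipa was second in fAb cells at 843 ± 26.2 TPM and in oAb cells at 813 ± 77.4 TPM, with 414 ± 105 TPM in scramble cells, where Lamp1 was second at 1003 ± 72.4 TPM. At the low end, Sgsh was the least abundant in fAb (1.88 ± 0.225 TPM) and oAb cells (1.71 ± 0.137 TPM), against 27.6 ± 1.86 TPM in scramble cells, where the lowest was Atp6v0d2 at 12.1 ± 2.9 TPM. Clcn7 was in place 17 of 35 in fAb and in oAb cells, and in place 29 of 35 in scramble cells. In bulk samples, fewer cells with a transcript and less of it per cell cannot be told apart.

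Lipa took 37, 38.1, 37.3 and 37.7% of the summed TPM of the 14 hydrolases in fAb cells, 36.6, 36.1, 39.6 and 38.3% in oAb cells, and 20.1, 18.6, 12.3 and 17.9% in scramble cells. The groups of treated cells lay well above the controls. The other 13 hydrolases together came to 1402 ± 21.4 TPM in fAb, 1343 ± 41.9 in oAb and 1963 ± 68.3 in scramble cells. Clcn7 was 16.1 to 18.3 times as abundant in TPM as Ostm1, which encodes its obligate partner subunit, in fAb cells, 16.4 to 22.0 times in oAb cells and 3.52 to 3.79 times in scramble cells; Ostm1 itself did not pass the test, at a log2 fold change of -0.06 after fAb and -0.13 after oAb. The ratio of Lamp2 to Lamp1 TPM was 0.191 to 0.218 in fAb, 0.189 to 0.204 in oAb and 0.0553 to 0.106 in scramble cells. Within the V1 sector, the ratio of Atp6v1h to Atp6v1a TPM was 0.145 to 0.157 in fAb and 0.161 to 0.173 in oAb cells; in scramble cells it was 0.151 in replicate 3 and 0.0704 to 0.0796 in the others, so that the fAb libraries overlapped the controls through 1 library and the oAb libraries did not. The ratio of summed V1 to summed V0 TPM overlapped between all groups. It was 0.645 to 0.889 in fAb, 0.566 to 0.737 in oAb and 0.390 to 0.846 in scramble libraries. The ratio of Npc2 to Npc1 TPM was 9.47 to 10.1 in fAb and 9.49 to 11.1 in oAb libraries. In scramble libraries it was 10.1 in replicate 3 and 5.09 to 5.55 in the others. All these ratios were chosen after the values were seen and carry no test.

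**Figure D3:**
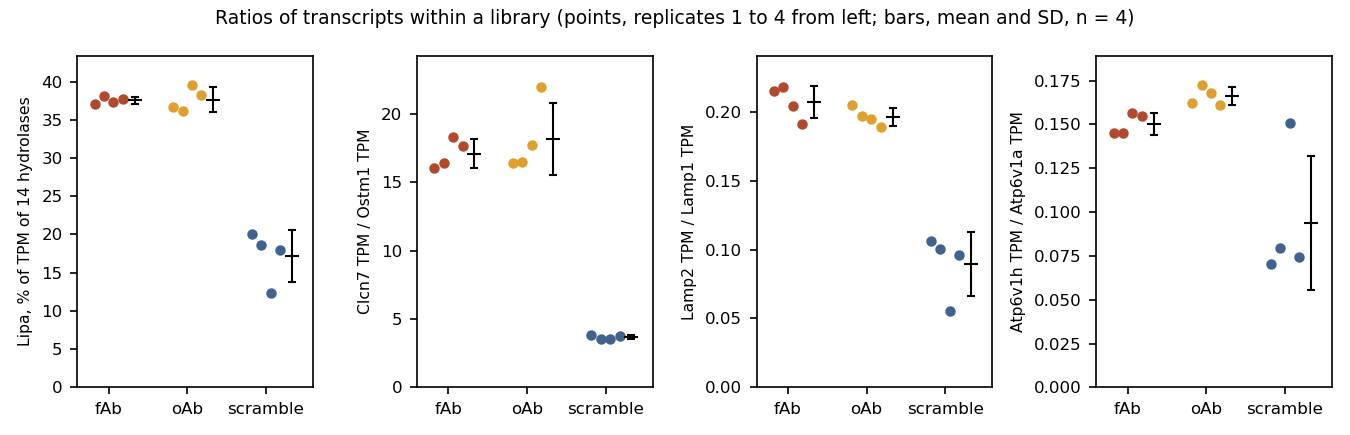
Ratios of TPM within each library (points; bars, mean and SD of 4 libraries; linear axes from 0) for Lipa as a percent of 14 hydrolases, Clcn7 over Ostm1, Lamp2 over Lamp1 and Atp6v1h over Atp6v1a, with fAb left, oAb in the middle and scramble on the right. The treated groups lie above the controls in each panel except for scramble replicate 3 in the last, at 0.151, which lies among the fAb libraries.

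Between fAb and oAb no gene of the 35 passed, and none of the 10878 genes tested did (0%) in edgeR, although 1391 genes had an unadjusted p under 0.05 and DESeq2 called 16. None of the 35 had an unadjusted p under 0.05, and in all 35 the fAb libraries overlapped the oAb libraries, where 6.31% of all genes tested had no overlap. The largest differences were those of Atp6v0c, at -0.27 ± 0.16 with a 95% interval of -0.63 to 0.10, and Gaa, at -0.22 ± 0.12 with an interval of -0.50 to 0.06. Among genes with strong responses the width of the interval varied. Clcn7 differed by -0.04 (-0.14 to 0.07) and Lipa by -0.03 (-0.19 to 0.13). Man2b1, at -0.13 (-0.39 to 0.13), and Naglu, at -0.18 (-0.45 to 0.10), had wider intervals. Sgsh differed by 0.05, with a wider interval of -0.29 to 0.40 at its low counts.

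Promoter windows of 250 bases before to 50 after the RefSeq start were at hand for 29 of the 35 genes. The E-box CACGTG lay in the window of 11 of the 29 (32.4% of their 34 windows), and in 7.15% of all 32851 windows in the table. TCACGTGA, which contains the E-box, lay in those of 5 (Atp6v0d1, Atp6v1a, Clcn7, Ctsa and Gla; 14.7% of windows against 0.974% of all). The CLEAR palindrome, 10 letters that contain TCACGTGA, lay in 0 of the 34 windows and in 0.326% of all. At so low a share, its absence from 34 windows cannot show a shortage. The M-box TCATGTGA, read on both strands, lay in 5 (Atp6v0c, Gla, Grn, Ppt1 and Tpp1; 14.7% of windows against 0.986% of all). Set beside the calls, an E-box was found in 1 of 8 genes higher in both comparisons (Clcn7), in 3 of 9 lower in both (Glb1, Naglu and Sgsh), and in 5 of 10 that passed in neither (Atp6v0b, Atp6v1a, Ctsa, Gaa and Gla), besides Atp6v0d1 and Lamp1. A match is a string of letters in this window and not evidence of binding.

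**Figure D4:**
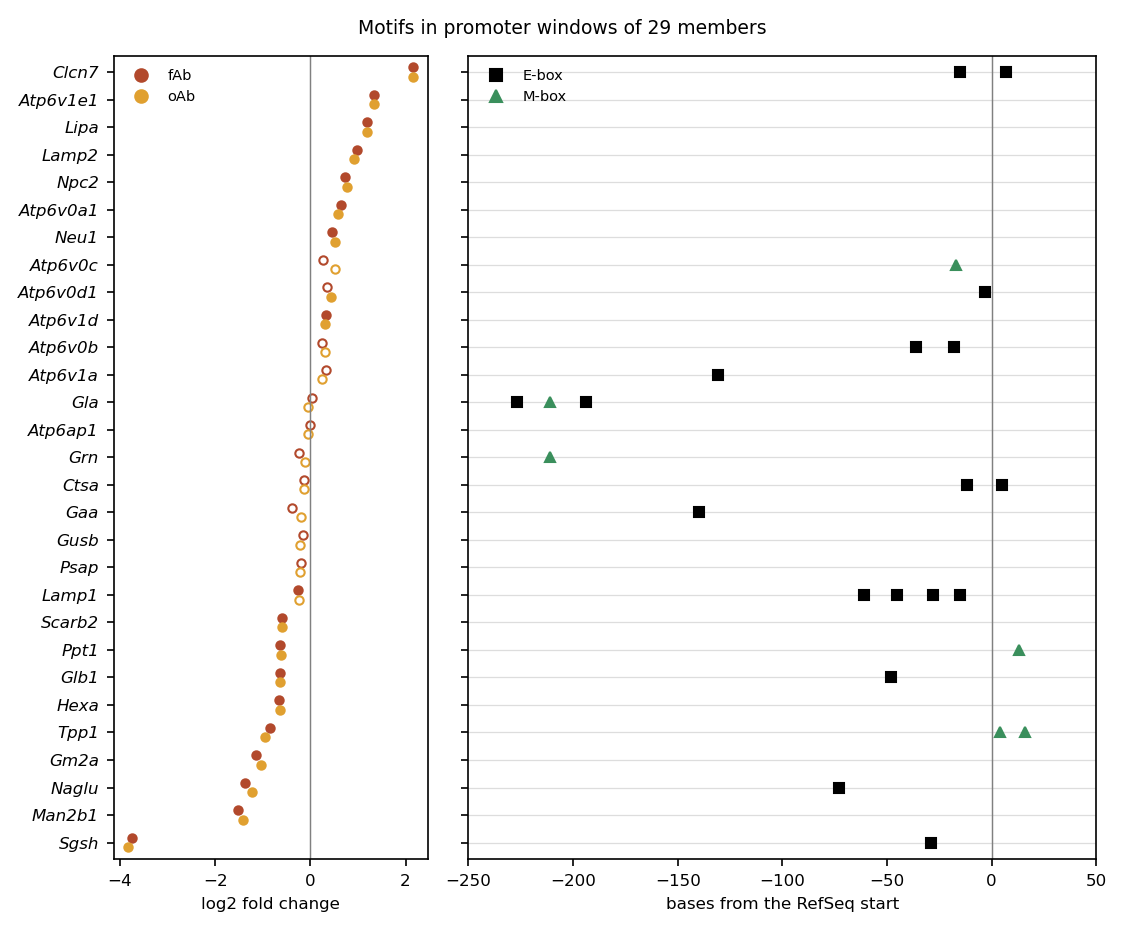
Left, log2 fold change against scramble (fAb red, oAb yellow; open points, edgeR adjusted p of 0.05 or more) of the 29 genes with a promoter window, ordered by the oAb value. Right, distance in bases from the RefSeq start to the first base of each E-box (squares) and M-box (triangles) in the window; genes with an E-box lie at the top (Clcn7), in the middle and at the bottom (Sgsh) of the order.

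Other genes of the lysosome also rose or fell, in shares set here beside the 56.3% of all genes that passed after fAb and the 52.2% after oAb. The share that passed after fAb and after oAb was 60 and 64% of other hydrolases, 55 and 60% of other membrane proteins and 42.9 and 42.9% of other pump genes. It was 60 and 46.7% of delivery genes, and 75 and 75% of the TFEB family, which has only 4 genes. Of 25 other hydrolases, 3 were higher and 12 lower after fAb and 3 higher and 13 lower after oAb, with median log2 fold changes of -0.26 in both. Lgmn, the asparagine endopeptidase, changed by -1.82 ± 0.12 and -1.78 ± 0.12, and Galc, which splits galactosylceramide, by -1.66 ± 0.12 and -1.73 ± 0.12. Acp5, the tartrate-resistant phosphatase, had 93 counts over the 4 fAb libraries and 96 over the 4 oAb libraries, against 2 over the 4 scramble libraries. Of 20 tested genes of 21 other membrane proteins, 3 were higher and 8 lower after fAb and 4 higher and 8 lower after oAb. Among these Slc11a1, a metal transporter of phagosomes, changed by 2.71 ± 0.16 and 2.78 ± 0.15, the channel gene Tpcn1 by -2.14 ± 0.13 and -2.07 ± 0.11, and the sialic acid exporter Slc17a5 by -1.80 ± 0.12 and -2.09 ± 0.14.

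Of 12 further pump genes, 7 had enough counts to be tested, and 2 were higher and 1 lower after fAb, with the same numbers after oAb. The a subunit genes Tcirg1 and Atp6v0a2 were higher, by 0.65 ± 0.12 and 0.54 ± 0.11 after fAb and 0.73 ± 0.14 and 0.54 ± 0.11 after oAb, and Atp6v1g1, a stalk subunit, changed by -0.60 ± 0.12 and -0.49 ± 0.13. Of 15 genes that deliver enzymes to lysosomes, 6 were higher and 3 lower after fAb and 5 higher and 2 lower after oAb; Sort1, the sorting receptor sortilin, changed by -1.90 ± 0.14 and -2.06 ± 0.15, and Cln6 and Cln8, which help enzymes out of the endoplasmic reticulum, changed in opposite directions, Cln6 by -1.77 ± 0.13 and -1.80 ± 0.13 and Cln8 by 1.40 ± 0.10 and 1.5 ± 0.08. Of the 4 genes of the TFEB family, Tfeb changed by -1.97 ± 0.30 after fAb and -1.17 ± 0.36 after oAb (its oAb libraries overlapped the controls), Tfec by 1.67 ± 0.10 and 1.5 ± 0.14, and Tfe3 by 0.30 ± 0.11 and 0.37 ± 0.10, and Mitf did not pass. Tfeb also differed between the 2 library sets within a group. In oAb cells it had 9.60 and 9.68 normalised CPM in replicates 1 and 2, and 3.67 and 5.47 in replicates 3 and 4. Scramble replicate 1, the only control in the set of the fAb libraries, had 8.39. The other controls had 15.3, 21.8 and 18.8, and the fAb libraries 4.23, 2.85, 4.72 and 4.20. The part of the library set in the change of Tfeb was not tested. All values named in these lists passed in edgeR unless said otherwise.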

How the data were processed

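RNA of 12 libraries, 4 per group, was made into libraries from 2 ug of total RNA with a stranded mRNA kit, per the labels' protocols. The authors deposited a table for each preparation with raw counts per gene and TPM values, per the file headers; mm10 is the build in the submitters' processing notes, and the aligner, the counter and its use of strand are not named there. The counts of the 4 controls were identical in both tables (0 values differed), and 32 further columns of per-sample values were not used. No pair of libraries agreed within sampling noise (within groups, chi-square over its degrees of freedom ran between 2.97 and 143).

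The counts were tested with edgeR 4.0.16 in R 4.3.3 for each comparison on its 8 libraries: low genes were dropped with filterByExpr (minimum count 10), libraries were scaled by TMM, and a two-sided robust quasi-likelihood F test was run, with p-values adjusted by Benjamini-Hochberg over all genes tested (threshold 0.05). The scripts were checked on simulated data. DESeq2 1.42.0, other scalings, no filter, all 12 libraries in 1 fit, the library set as a term, the replicate number as a block and leaving out each library were alternatives, and limma 3.58.1 was loaded with edgeR. Replicate numbers come from the titles. Deviations from group means of same-numbered fAb and scramble libraries correlated at 0.179, 0.13, 0.22 and 0.117. Each of these pairs met the rule used, a correlation over 0.1. Those of oAb and scramble libraries, at -0.26, 0.0719, -0.255 and 0.00666, did not. Correlations of different-numbered fAb and scramble libraries ran from -0.367 (fAb 4 with scramble 1) to 0.441 (fAb 2 with scramble 1). The rule looked at same-numbered pairs only, so it cannot show that libraries are paired by number.

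Members and lists were chosen with earlier results of these data known. Genes given library by library are, within each role, up to 4 hydrolases and up to 3 others with the largest change past the threshold. Gene positions are from GENCODE in GRCm38 (mm10), and promoter sequences from RefSeq in GRCm38.p6. Of the 35 genes, 10 overlap an exon of another gene on the other strand and 1 (Glb1) on the same strand, and none shares 20% or more of its 50-base words with other genes. Neu1 and Atp6v0c are also given by library, chosen after their values were seen. Among lists of other genes, up to 3 past the threshold with the largest change are named.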

Additional observations from a re-analysis of the deposited data

Results flagged for a closer look

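Normalised CPM of each gene in each group of 4 libraries was searched for a library far from the others by Dixon's gap test at its 95% critical value. Of 105 groups, 3 had such a library, each time scramble replicate 3 on the high side: Glb1 at 76.5 (the other controls at 65.35 to 66.95), Atp6v1d at 78.9 (57.83 to 60.82) and Atp6v1h at 92.9 (70.68 to 73.84). Chance alone marks about 1 in 20 groups.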

How the results depend on the processing

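For single genes, the 15 alternatives gave 472 results on the same side of the threshold and of 0 for fAb against scramble, with 24 losing and 14 gaining a call, and 485, 25 and 12 for oAb against scramble. Counts that moved by over 1.5 times were the genes lower after oAb with upper quartile scaling, 14 of the 35, all genes past the threshold after fAb with the library set as a term, 3844, and genes differing between fAb and oAb in DESeq2, 16. The direction turned only in genes that passed in neither setting. With upper quartile scaling this was Npc1 (-0.09 after fAb and -0.09 after oAb), Gla after fAb (-0.16) and Atp6ap1 after fAb (-0.19). After fAb it was also Gla (-0.01) and Atp6ap1 (-0.03) with all 12 libraries, and Ctsa (0.04), Gaa (0.10), Grn (0.09) and Atp6ap1 (-0.05) with the library set as a term; the cause was not tested. Leaving out 1 library, the log2 fold change after fAb ran between -0.21 and 0.00 for Ctsa, -0.06 and 0.14 for Gla and -0.02 and 0.02 for Atp6ap1, and after oAb between -0.13 and 0.05 for Gla and -0.21 and 0.06 for Grn. Members higher then numbered 9 to 15 after fAb and 9 to 14 after oAb, members lower 9 to 11 and 9 to 10, and all genes past the threshold 5517 to 7598 and 4962 to 7174, the upper ends of higher members and of all genes without scramble replicate 3. With the replicate number as a block, 12 members were higher and 9 lower after fAb (6292 genes in all), where Atp6v0d1 gained and Lamp1 lost its call. For oAb against scramble the block gave 10 higher and 9 lower members (5081 genes), without Neu1 and Atp6v1d. In neither comparison is it known that same-numbered libraries share more than a number. Sgsh, at 40 to 53 counts per treated library, is the member whose treated level depth limits most.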

Other observations

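Genes of 1 degradation route and of enzyme sorting were set together after their values were seen, so they carry no test as groups. Among genes for heparan sulfate breakdown, Sgsh, Naglu and Hgsnat, the acetyltransferase of the route, were lower, Hgsnat at a log2 fold change of -0.69 ± 0.08 after fAb and -0.77 ± 0.09 after oAb. Ids (0.17 ± 0.21 and 0.01 ± 0.21), Idua (0.01 ± 0.10 and 0.04 ± 0.09) and Gusb did not pass; the route is not given here in full. Both mannose 6-phosphate receptors were higher, M6pr at 1.33 ± 0.08 after fAb and 1.29 ± 0.09 after oAb and Igf2r at 1.22 ± 0.18 and 1.01 ± 0.18, while the sorting receptor gene Sort1 was lower.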
